A study of Homo sapiens with 30 samples.

Results

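NR4A1 (Gene ID 3164) is 1 of the 22538 gene names in the deposited tables, and it has a single entry there. It was picked out by its name because its level 2 h after exposure was far above control, and by a similar amount, in every exposure. Those early values chose the gene, so they are given below as a description with no test. The levels 24 h after exposure took no part in the choice and were tested.

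The cells were BEAS-2B, an established line of human bronchial epithelial cells, and were treated for 30 min on a rocker. There were 5 conditions: control, burning charcoal alone, herbal shisha without tobacco on charcoal, tobacco shisha on charcoal, and tobacco shisha on an electric heater. RNA was collected from 3 wells of each condition at 2 h and from 3 others at 24 h, which gives 10 groups and 30 libraries. Each exposure was given at its highest level without LDH release (a sign of burst cells) at 24 h, so amounts of smoke were not matched between exposures. What the control exposure consisted of, and whether the 3 wells of a group came from separate cultures, is unknown here. The p-values therefore measure only the spread between these wells, part of which may be technical.

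NR4A1, also known as Nur77, is a transcription factor of the nuclear receptor superfamily, called an orphan because no natural ligand is firmly established for it. With its relatives NR4A2 (Nurr1) and NR4A3 (NOR-1) it binds a DNA site named NBRE, and its activity is set mainly by how much of it a cell makes. All 3 genes are immediate early genes, which a cell can transcribe within minutes of a growth factor, calcium, cyclic AMP or stress signal without making new protein first.

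RefSeq on GRCh38.p14 places NR4A1 on the forward strand of chromosome 12, at chr12:52022832-52059503. The entry in the tables is a protein-coding transcript of 8 exons and 2589 bases, of which 1833 are coding, starting at the first base of the gene. GENCODE release 29 lists 22 NR4A1 transcripts with 19 different start positions. Of these transcripts, 7 start 28.6 kb further on, between 52051402 and 52051463. The sources used here do not say whether the deposited value stands for the 1 transcript or for the whole gene.

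Promoter windows of NR4A1 and NR4A3 are printed because only these family members had windows available here. They are RefSeq windows on GRCh38.p14, each running from 250 bases before a start to 50 after it, and 2 of the 3 family symbols, NR4A1 and NR4A3, matched the table. Capitals mark every match to the short CRE site TGACG on either strand, a letter pattern read by CREB, the factor that carries cyclic AMP and calcium signals to many early genes.
NR4A1, chr12:52022582-52022881, forward strand: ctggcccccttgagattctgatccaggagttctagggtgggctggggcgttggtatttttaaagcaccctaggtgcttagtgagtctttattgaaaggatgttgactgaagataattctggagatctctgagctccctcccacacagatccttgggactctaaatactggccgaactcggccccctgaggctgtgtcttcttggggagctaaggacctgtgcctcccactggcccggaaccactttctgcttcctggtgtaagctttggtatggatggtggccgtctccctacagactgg
NR4A3, chr9:99821635-99821934, forward strand: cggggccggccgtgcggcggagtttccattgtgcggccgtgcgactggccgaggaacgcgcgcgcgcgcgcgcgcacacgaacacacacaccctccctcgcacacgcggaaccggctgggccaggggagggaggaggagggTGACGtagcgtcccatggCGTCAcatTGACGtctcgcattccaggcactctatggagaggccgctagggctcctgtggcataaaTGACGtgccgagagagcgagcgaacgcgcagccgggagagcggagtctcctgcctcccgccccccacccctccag

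The NR4A3 window held 4 TGACG matches, starting at bases 142, 160, 168 and 226 of the window. GENCODE 29 starts its NR4A3 transcripts at 99821855, inside this window and before the last of these matches. Of 35116 promoter windows of the same length, 24.6% held at least 1 such match. The NR4A1 window above, and its other window at chr12:52037465-52037764, held none. None of the 3 windows held the full CRE site TGACGTCA (1.85% of all windows), the NBRE site AAAGGTCA (1.22%), the AP-1 site TGANTCA (7.71%), the EGR site GCGGGGGCG (5.07%) or a CArG box (1.29%), all searched on both strands. A full CRE site or its complement also contains a short CRE site. The region before the cluster of starts at 52051402 was not searched here.

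Reads were 50 bases long, and no run of 50 bases in the listed NR4A1 transcript occurred in a transcript of NR4A2 or NR4A3. The longest run shared by the coding sequences of NR4A1 and NR4A2 was 20 bases, GCTGTGTGTGGGGACAACGC, at coding bases 841 to 860 of NR4A1. With the coding sequence of the NR4A3 transcript in the tables the longest shared run was 17 bases. An antisense noncoding gene, AC025259.3 (chr12:52058459-52059503, reverse strand), covers 816 of the 2589 exonic bases, or 31.5%. No strand setting of the counting is stated in those sources, so reads of NR4A1 and of this gene cannot be told apart over that stretch. No other gene shared a 50-base run with the listed transcript.

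Libraries were close to each other: FPKM, a level scaled to transcript length and library size, summed to between 199985.1 and 220258.7 per library, and the number of reads behind a value is unknown. The mean correlation of a library with the other libraries of its group lay between 0.9824 and 0.9885. Of 11 epithelial markers, 10 were listed and 4 were tested, led by KRT8 (mean 554.4 FPKM) and KRT18 (317.8), while CDH1, NKX2-1 and KRT5 were below 0.1 FPKM. Of 10 fibroblast markers 5 were tested, led by VIM (736.9 FPKM) and THY1 (129.3), while COL3A1, PDGFRA, FAP and DCN were below 0.1 FPKM. Summed levels ranged between groups from 772.1 to 1173.0 FPKM for the epithelial list, 926.6 to 1148.0 for the fibroblast list, 0.6025 to 1.166 for 6 endothelial markers, and 18.06 to 29.34 for 7 immune markers, carried by CD68 and CD14 (10.94 FPKM each) with PTPRC, CD3E, ITGAM and LYZ below 0.1 FPKM.

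NR4A1 stood far above control 2 h after every exposure, in each of the 12 exposed wells. In the 3 control wells at 2 h, NR4A1 was at 0.784, 0.842 and 0.726 FPKM. After charcoal alone the wells were at 66.5, 59.0 and 48.3 FPKM, and after herbal shisha on charcoal at 57.2, 67.5 and 58.6. The exposed and control wells did not overlap.

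After tobacco shisha on charcoal the 3 wells were at 66.8, 53.4 and 55.0 FPKM, the same range as the previous exposures. After tobacco shisha on the electric heater they were at 114.4, 95.8 and 48.4 FPKM. Wells 1 and 2 of the electric heater were the highest of all 30 libraries, and well 3 lay among the lowest of the 12 exposed wells.

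Group means were 86.2 ± 34.0 FPKM for the electric heater, 61.1 ± 5.56 for herbal shisha, 58.4 ± 7.30 for tobacco shisha on charcoal and 58.0 ± 9.16 for charcoal alone (SD, n = 3 wells), against 0.784 ± 0.0581 in control. As ratios of means to control these were 110.0, 77.9, 74.5 and 73.9. The wells of each exposure overlapped those of the next in this order, and the electric heater mean became 105.12 FPKM, 134 times control, without its well 3. The widest spread between wells was that of the electric heater. On the scale log2(FPKM + 1), which understates folds for a gene below 1 FPKM in control, the differences from control were 5.04 for charcoal alone, 5.12 for herbal shisha, 5.05 for tobacco shisha on charcoal and 5.52 for the electric heater. Among the 8531 genes tested NR4A1 had the largest difference after each of the 3 charcoal exposures and the third largest after the electric heater on this scale. With a pseudocount of 0.1 FPKM it ranked 1 after charcoal alone, 2 after herbal shisha and after tobacco shisha on charcoal, where EGR3 was above it, and 5 after the electric heater. In bulk RNA, a change in how many cells express a gene and a change per cell cannot be told apart.

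**Figure D1:**
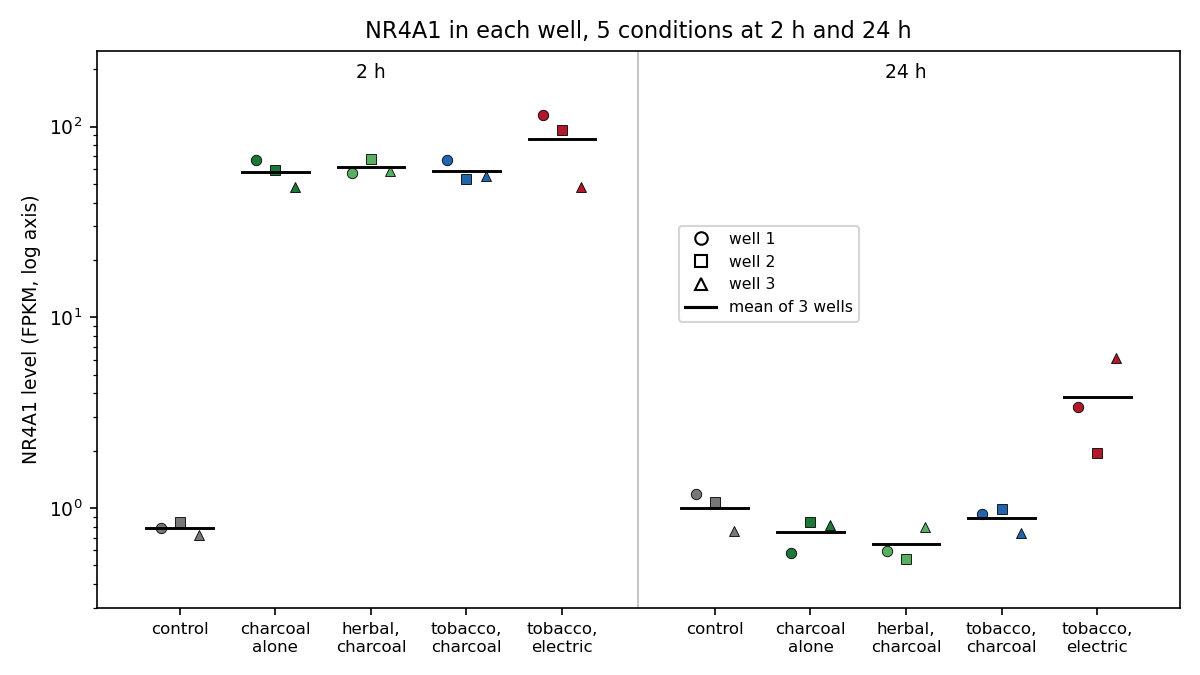
NR4A1 level in FPKM (log axis) in each of 30 wells, by condition and time. Symbols mark wells 1 to 3 of a group, which were not treated as paired, and bars the mean of 3 wells. At 2 h the exposed wells sit between 48.3 and 114.4 FPKM and the control wells below 1, and at 24 h the electric heater wells, from 1.95 to 6.11 FPKM, sit above all others.

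At 24 h NR4A1 was above control after the electric heater and was not distinguished from control after the 3 charcoal exposures. The 3 control wells at 24 h were at 1.18, 1.08 and 0.754 FPKM. The electric heater wells were at 3.39, 1.95 and 6.11 FPKM, all above every control well. Tobacco shisha on an electric heater thus left NR4A1 at 3.82 ± 2.11 FPKM against 1.00 ± 0.221 (SD, n = 3), a ratio of means of 3.81.

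The log2 difference of the electric heater from control at 24 h was 1.18 (SE 0.24, 95% interval 0.68 to 1.68), and the gene was called by limma (adjusted p = 1.79e-04 over 8531 genes). In that comparison 63.8% of all genes tested were called and 34.3% were called higher, so a call alone is common there. By size of the log2 difference NR4A1 ranked 131 of 8531. The difference kept its direction and its call under all 12 alternatives tried, with log2 values from 0.85 to 1.70 and adjusted p from 9.19e-06 to 0.0158. The smallest value came without well 3, the highest of the group, where the mean of the remaining wells was 2.67 FPKM. The fit pools the spread of each gene over the 10 groups, so its SE is smaller than the wells of this group alone would give. The wells of control and of the charcoal exposures at 24 h lay closer together, so for them the pooled SE is larger.

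The 3 charcoal exposures gave no call at 24 h. After charcoal alone the wells were at 0.584, 0.847 and 0.814 FPKM, and the log2 difference from control was -0.19 (95% interval -0.69 to 0.31, adjusted p = 0.706 by limma, 9.87% of genes called). After herbal shisha they were at 0.596, 0.539 and 0.799 FPKM (-0.28, interval -0.78 to 0.22, adjusted p = 0.421 by limma, 26.8% called). After tobacco shisha on charcoal they were at 0.935, 0.986 and 0.740 FPKM (-0.08, interval -0.58 to 0.42, adjusted p = 0.815 by limma, 44.5% called). Their wells overlapped those of control, and each interval allows a change in either direction. These levels lie near the pseudocount of 1 FPKM, where the scale understates folds, so a sizeable fold decrease is not excluded.

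Averaged over the 4 exposures, NR4A1 at 24 h differed from control by 0.16 on the log2 scale (95% interval -0.24 to 0.55, adjusted p = 0.535 by limma, 46.0% of genes called). A two-sided exact permutation test of this difference over 12 exposed and 3 control wells gave p = 0.807, where the smallest p that 455 splits allow is 0.0022. This average merges the electric heater, which was above control, with the 3 charcoal exposures, which were not called. It describes no single exposure and does not bear on the electric heater result.

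Between exposures at 24 h, 6 pairs were compared, each adjusted over all genes tested. The electric heater was above charcoal alone by 1.37 (adjusted p = 3.17e-05, 63.0% of genes called), above herbal shisha by 1.46 (2.15e-05, 55.9%) and above tobacco shisha on charcoal by 1.26 (1.81e-04, 47.8%), all on the log2 scale with an SE of 0.24 by limma. The last of these pairs shares the tobacco shisha and differs in the heat source. Amounts of smoke were not matched between exposures, so heat source and dose cannot be told apart in it. No pair among the 3 charcoal exposures was called: the differences were -0.09 (95% interval -0.59 to 0.41) for herbal shisha against charcoal alone, 0.11 (-0.39 to 0.61) for tobacco shisha against charcoal alone and 0.20 (-0.30 to 0.70) for tobacco against herbal shisha. In these 3 comparisons 31.5%, 44.1% and 5.12% of genes were called.

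**Figure D2:**
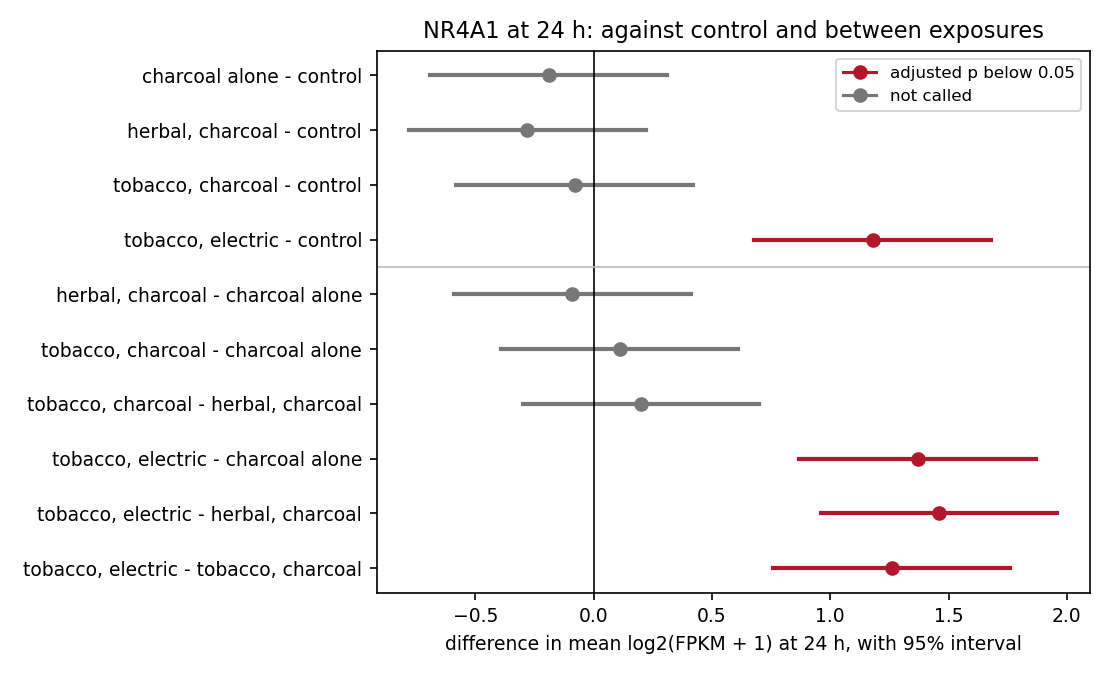
Differences in mean log2(FPKM + 1) of NR4A1 at 24 h with 95% intervals: 4 exposures against control above the grey line and 6 pairs of exposures below it. The 4 comparisons with the electric heater, from 1.18 to 1.46, exclude 0, and the other 6 intervals include it.

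Ranked by mean level, the 10 groups fell into 3 tiers. The 4 exposed groups at 2 h came first, with overlapping neighbours, and the electric heater at 24 h was alone in the next place, with no overlap on either side. Below it came control at 24 h (1.00 FPKM), tobacco shisha on charcoal at 24 h (0.887 ± 0.130), control at 2 h (0.784), charcoal alone at 24 h (0.749 ± 0.143) and herbal shisha at 24 h (0.645 ± 0.137), each overlapping the next. Of the mean level at 2 h, 4.43% was left at 24 h after the electric heater, against 1.29% after charcoal alone, 1.06% after herbal shisha and 1.52% after tobacco shisha on charcoal.

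NR4A3 and NR4A2, the relatives of NR4A1, were lower in level per length but also stood far above control at 2 h. Neither reached 1 FPKM in any of the 18 libraries outside the exposed wells of 2 h, so both passed the filter on low values only through those wells and had to differ there. NR4A3 was at 0.123, 0.0909 and 0.0771 FPKM in control at 2 h. It was at 5.78, 4.87 and 4.02 FPKM after charcoal alone, at 4.04, 5.12 and 4.39 after herbal shisha, and at 4.37, 3.42 and 3.65 after tobacco shisha on charcoal. The electric heater gave 6.72, 6.21 and 1.80 FPKM, again with well 3 lowest.

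NR4A2 set the electric heater apart from the charcoal exposures at 2 h. It was listed at 0 in control wells 1 and 2 and at 0.0607 FPKM in well 3. The electric heater wells were at 6.99, 5.81 and 3.32 FPKM, and the 9 wells of the charcoal exposures lay between 0.843 and 1.65. All electric heater wells were above all charcoal wells, and NR4A2 differed among the 4 exposures in limma's F test (adjusted p = 8.26e-09, largest minus smallest log2 mean 1.65, 46.7% of genes called). NR4A2 passes the filter on low values without these electric heater wells too, with 5 of 27 libraries at 1 FPKM or more. For NR4A3 the same test gave an adjusted p of 0.693 (limma) and a range of means of 0.29, and its wells overlapped across all 4 exposures. For NR4A1 the range of means was 0.49, given without a test because equality was part of its choice.

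At 24 h both relatives were above control in the electric heater wells. NR4A2 was at 0.437, 0.216 and 0.689 FPKM against 0.0831, 0.101 and 0.0669 in control, with no overlap, a log2 difference of 0.40 (SE 0.14, limma adjusted p = 0.0142). Without electric heater well 3 this call was lost (adjusted p = 0.102 by limma). NR4A3 was at 0.544, 0.379 and 0.872 FPKM against 0.134, 0.0985 and 0.0981 in control, also with no overlap, a log2 difference of 0.51 (SE 0.22, limma adjusted p = 0.0459). That call was lost in 7 of 12 alternatives, among them leaving out any 1 of the control wells or electric heater well 1 or 3. All these levels are below the pseudocount of 1 FPKM. After the 3 charcoal exposures neither gene was called at 24 h, with log2 differences from -0.06 to 0.05.

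NR4A1 made up most of the family's summed FPKM in every group, from 77.9% in the electric heater wells at 24 h to 92.4% in those of tobacco shisha on charcoal at 2 h (means of 3 wells). The ratio of NR4A1 to NR4A2 was 14.6 to 16.5 in the electric heater wells at 2 h, against 36.2 to 73.8 in the wells of the 3 charcoal exposures, with no overlap.

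**Figure D3:**
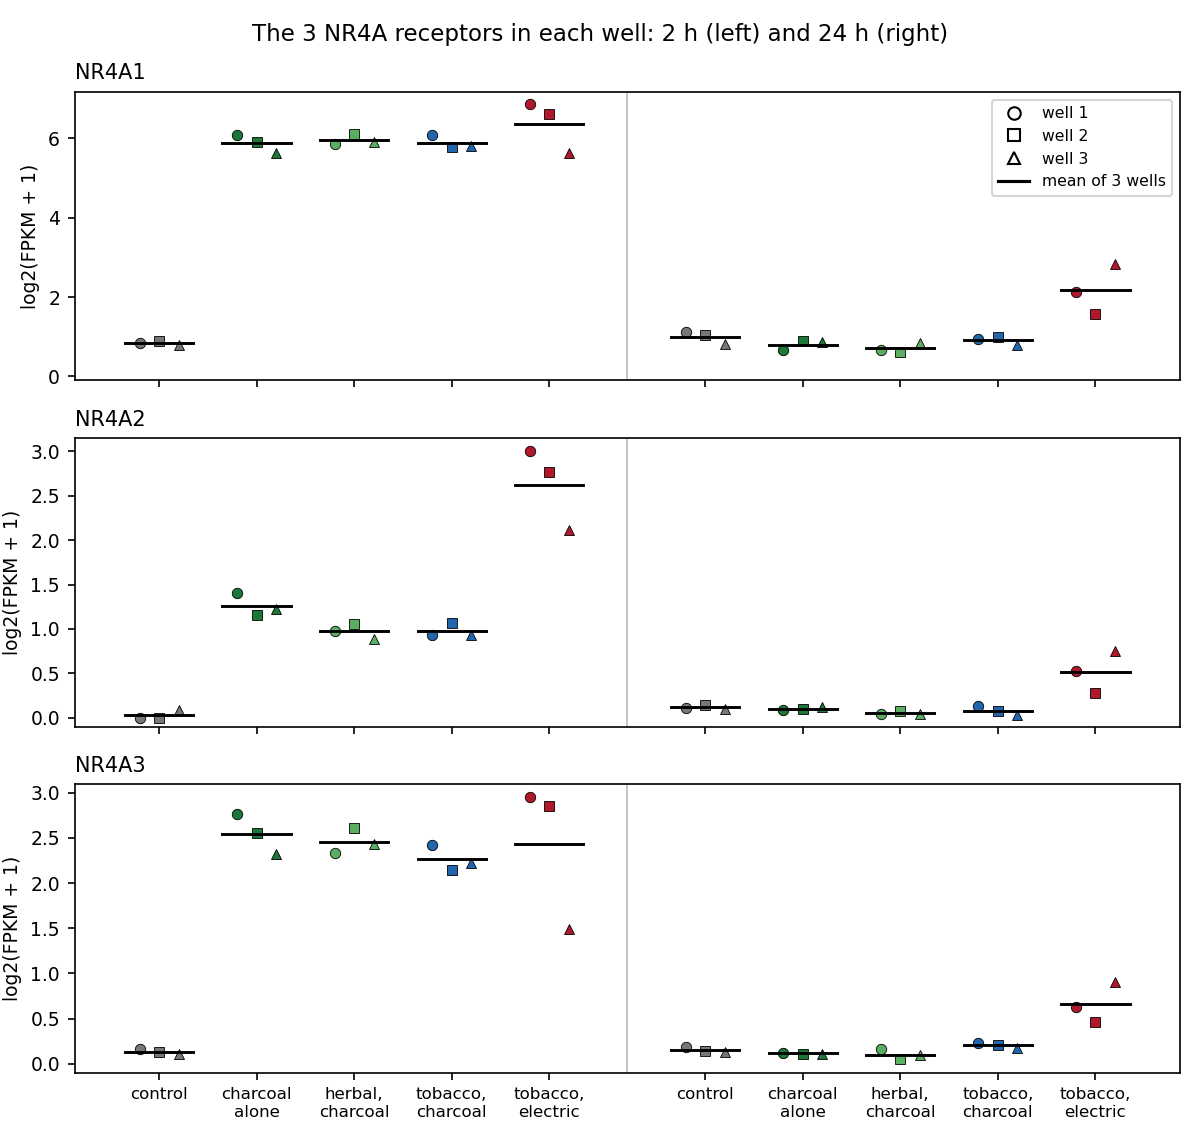
Levels of NR4A1, NR4A2 and NR4A3 in each well as log2(FPKM + 1), 2 h on the left and 24 h on the right of each panel, with the mean of 3 wells as a bar; the 3 panels have their own axes. NR4A2 alone shows the electric heater wells at 2 h above every charcoal well, and all 3 genes show the electric heater above control at 24 h.

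Within the electric heater groups the wells differed in a way that several early genes shared. At 2 h NR4A1 was highest in well 1 and lowest in well 3, and 16 of the 28 other immediate early genes tested had that order of extremes, as did 17.0% of all genes tested. FOS, the partner of JUN in the AP-1 complex, had the reverse order, at 193.4, 211.6 and 274.4 FPKM in wells 1, 2 and 3. At 24 h NR4A1 was highest in well 3 and lowest in well 2, as were 20 of the 28 genes and 20.2% of all genes. This look at wells was chosen after the values were seen and has no test. Well 3 at 2 h also had the highest FPKM sum of the 30 libraries, and the part of this in the result was not tested.

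The other immediate early genes give the setting of the NR4A1 values. The list held 36 genes besides NR4A1, of which 29 were in the tables and 28 were tested, and 22 of these passed the filter on low values without the exposed wells of 2 h. Of the 22, 20 were called higher after charcoal alone (8.16% of all genes called higher), 19 after herbal shisha (10.6%), 19 after tobacco shisha on charcoal (8.50%) and 21 after the electric heater (9.27%). By limma 0 of the 22 were lower, also at an unadjusted p below 0.05. Of all genes, 16.2%, 27.7%, 26.7% and 24.8% were called lower in the same order. This contrast chose NR4A1, and the counts are given as a description.

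On the scale log2(FPKM + 1) none of the 28 other early genes tested reached the NR4A1 difference of about 5 after a charcoal exposure. FOSB, FOSL1, KLF2, MYC, BTG1, MCL1 and CCN2 could not be matched to an entry and were not compared. Among the nearest was ATF3, a stress transcription factor, with 2.73, 3.75 and 3.56 after charcoal alone, herbal shisha and tobacco shisha on charcoal. EGR3, a zinc finger factor, had 2.86, 3.70 and 3.49 in that order, and DUSP5 had 2.76 after charcoal alone. EGR3 was higher than NR4A1 as a ratio of means, at 251, 475 and 413 times control after the 3 charcoal exposures, from 0.0260 FPKM in control to 6.53, 12.35 and 10.7. It passed the filter only through exposed wells. After the electric heater FOS (7.10) and EGR1 (6.96), a zinc finger factor, had larger differences than NR4A1 (5.52). Where NR4A1 had ratios to control of 73.9 and 110.0 after charcoal alone and the electric heater, those of FOS were 5.44 and 353.0 and those of EGR1 were 6.01 and 196.0. Of the 28 genes, 23 differed among the 4 exposures at 2 h by limma's F test, against 46.7% of all genes. These 23 include FOS, EGR2, EGR3, EGR4 and NR4A2, which passed the filter only through exposed wells of 2 h.

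At 24 h the electric heater left many early genes above control. Of the 28 genes, 18 were called higher and 1 lower (34.3% and 29.5% of all genes), with a median log2 difference of 0.49 against 0.03 over all genes. SGK1, a kinase of salt and survival signalling, was at 19.0 ± 10.5 FPKM against 1.95 ± 0.401 (SD, n = 3; log2 difference 2.62, limma adjusted p = 4.60e-09). DUSP5, a nuclear phosphatase of ERK, was at 22.9 ± 10.5 FPKM against 3.47 ± 0.522 (2.32, limma adjusted p = 1.53e-09), and DUSP6, its cytoplasmic counterpart, rose by 1.60. FOS wells were at 3.30, 0.921 and 7.38 FPKM against 0.382, 0.439 and 0.315, all above control (1.58, limma adjusted p = 4.98e-05). FOSL2, a FOS relative, was the gene called lower.

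After the charcoal exposures few early genes were called at 24 h. By limma there were 0 calls after charcoal alone, with 0 higher and 4 lower at an unadjusted p below 0.05 (6.05% of all genes called higher and 3.82% lower). After herbal shisha 5 were called lower and 0 higher, and 0 were higher at an unadjusted p below 0.05 too (16.5% of all genes higher and 10.4% lower). After tobacco shisha on charcoal 1 was called higher and 6 lower (25.9% and 18.6%). Charcoal alone had 2 calls in a fit on the compared groups alone and 3 without control well 3. Herbal shisha had 2 calls without control well 2, and tobacco shisha on charcoal had 3 without its own well 1.

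**Figure D4:**
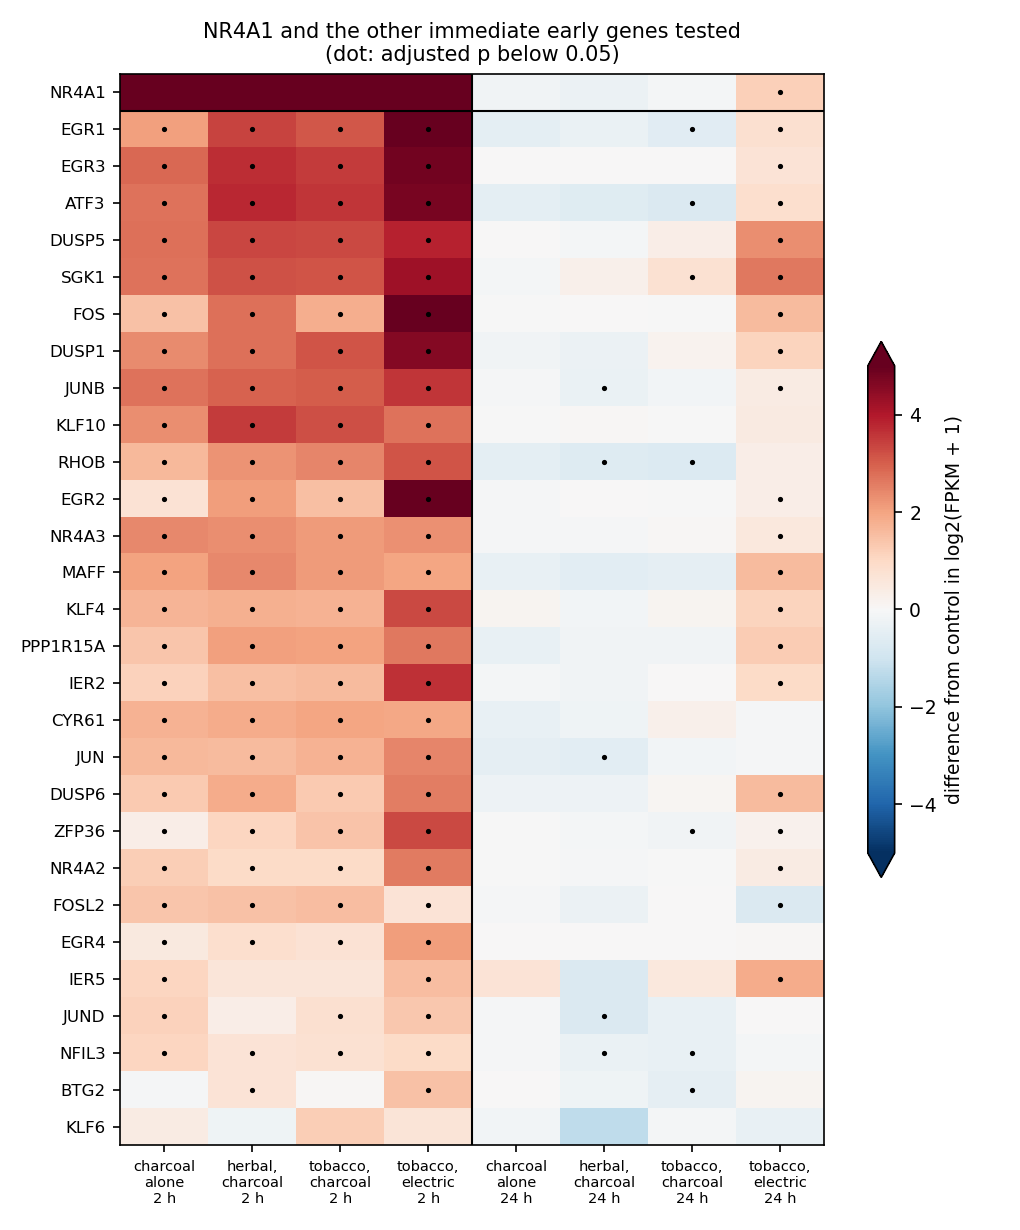
Difference from the control of the same time in log2(FPKM + 1), as colour (saturated beyond 5), for NR4A1 and the 28 other immediate early genes tested, in 4 exposures at 2 h and at 24 h; dots mark an adjusted p below 0.05 and are left out for NR4A1 at 2 h, which chose it. NR4A1 is above 5 in all 4 columns of 2 h, while FOS and EGR1 are darkest in the electric heater column.

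By the fixed measure of likeness, the Pearson correlation of 10 group means of log2(FPKM + 1), NR4A3 was the gene most like NR4A1 (r = 0.997), followed by JUNB (0.993), a JUN family member of AP-1. SOX9 (0.992), a developmental transcription factor, and DLX2 (0.985), a homeobox factor, came next, then EID3 (0.983), SOWAHC (0.982), CYTH2 (0.982) and LOC100652768 (0.980). NR4A2 (0.859), EGR1 (0.866) and FOS (0.782) were further away. The least alike were S100PBP (-0.986), ZBTB14 (-0.985) and HOMEZ (-0.983). The 10 points share their libraries in 2 tiers, 4 exposed groups at 2 h against the rest, so any gene with such a step has a high value. Ranked by Spearman's rho, NR4A3 was 21 and SOX9 77 of the other 8530 genes, while SOWAHC was 1 and JUNB 3.

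The likeness covers the shape and not the size. SOX9 went from 3.26 ± 0.174 FPKM in control at 2 h to between 13.3 and 17.1 in the means of the 4 exposures, and DLX2 from 1.43 ± 0.114 to between 18.8 and 27.7 (SD, n = 3). At 24 h SOX9 was at 5.21 ± 2.03 FPKM after the electric heater against 2.37 ± 0.291 in control (log2 difference 0.83, limma adjusted p = 2.55e-04), and DLX2 at 3.50 ± 1.10 against 0.743 ± 0.193 (1.35, limma adjusted p = 1.38e-05). By distance over the 8 log2 differences, which takes size into account, EGR3 was nearest (3.17), then ATF3 (3.28), HES1 (3.89), DLX2 (3.95) and DUSP5 (3.96).

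Among nuclear receptors, NR4A1 moved to the top from below the 12 that reached 1 FPKM in control at 2 h. FPKM is per length, so levels can be set side by side, but only roughly. Each receptor stands here by its highest transcript, so those with several may be understated. Among 42 receptors listed, itself included, NR4A1 ranked 14 in control cells at 2 h, where NR1H2 (LXR-beta, an oxysterol receptor) led with 46.9 FPKM, followed by RARG, a retinoic acid receptor (25.1), and NR3C1, the glucocorticoid receptor (22.0). It ranked first in all 4 exposed groups at 2 h. At 24 h it ranked 13 in control, 13 or 14 after the charcoal exposures and 11 after the electric heater.

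Of 47 other receptors, 41 had values and 15 were tested, and 13 of these passed the filter without the exposed wells of 2 h. Among the 13, RARA, another retinoic acid receptor, was called higher at 2 h in all 4 exposures, from 10.2 ± 0.324 FPKM in control to 20.4 ± 0.522 after charcoal alone and 12.7 ± 1.90 after the electric heater (SD, n = 3). RXRA, a partner with which NR4A1 can form a dimer, was lower in all 4, by -0.16 to -0.43 log2 units. At 24 h after the electric heater 8 of 15 receptors were called higher and 4 lower (34.3% and 29.5% of all genes). ESRRA, a receptor of mitochondrial gene control, went from 9.32 ± 0.483 to 14.9 ± 0.376 FPKM (log2 difference 0.63), and THRB, a thyroid hormone receptor, from 4.60 ± 0.237 to 2.02 ± 0.203 (-0.89, limma adjusted p = 5.62e-09). ESRRA was also called higher and THRB lower at 24 h after tobacco shisha on charcoal.

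**Figure D5:**
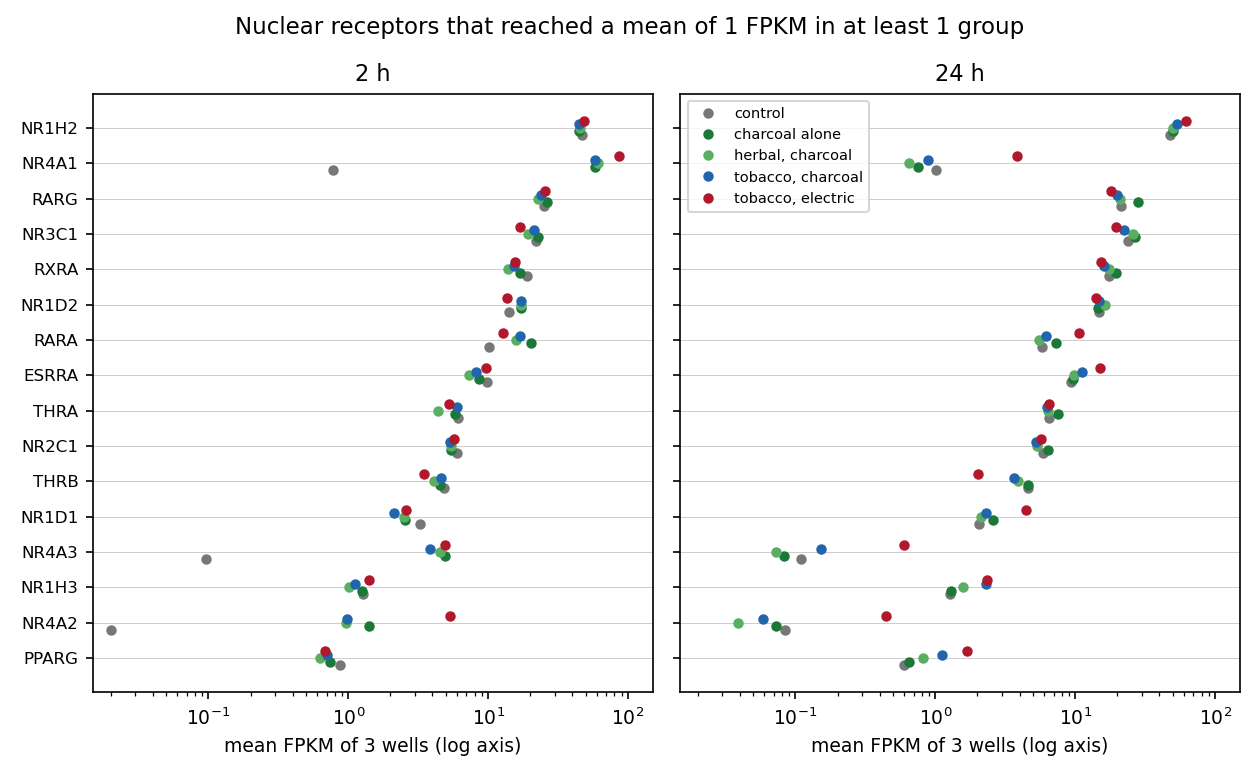
Mean FPKM of 3 wells (log axis) of the 16 nuclear receptors that reached 1 FPKM in at least 1 group, at 2 h and 24 h, coloured by condition. NR4A1 and its 2 relatives are the receptors whose exposed means at 2 h lie far to the right of control, and at 24 h the electric heater point of each stands to the right of the others.

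Of 27 genes tested that are known to act before NR4A1 in signalling, 26 passed the filter without the exposed wells of 2 h. Of the 26, 2, 3, 2 and 2 were called higher at 2 h after charcoal alone, herbal shisha, tobacco shisha on charcoal and the electric heater, where 8.16%, 10.6%, 8.50% and 9.27% of all genes were. In the same order 2, 12, 10 and 12 were called lower, where 16.2%, 27.7%, 26.7% and 24.8% of all genes were. SRF, which drives early genes through CArG boxes, was at 13.6 ± 0.452 FPKM in control and between 28.5 and 40.7 in the means of the exposures (SD, n = 3). NFATC2, a calcium-regulated factor, was at 0.210 ± 0.0269 FPKM in control, 4.40 ± 0.824 after charcoal alone and 0.309 ± 0.164 after the electric heater, and it passed the filter only through exposed wells. CREBBP and EP300, coactivators of CREB, were lower after the 3 shisha exposures, by -0.61 to -0.87 log2 units, and differed by -0.14 and -0.12, not called, after charcoal alone. At 24 h after the electric heater 5 of the 27 were called higher and 10 lower (34.3% and 29.5% of all genes).

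Of 10 genes tested that are known to respond to CREB, 9 passed the filter on low values without the exposed wells of 2 h. Among these 9, the genes called higher at 2 h numbered 6, 6, 6 and 7 in the same order of exposures (8.16%, 10.6%, 8.50% and 9.27% of all genes). Those called lower by limma numbered 0, 1, 1 and 1 (16.2%, 27.7%, 26.7% and 24.8%). At an unadjusted p below 0.05 the lower counts were the same. SIK1, a kinase that feeds back on CREB coactivators, went from 3.90 ± 0.180 FPKM in control to between 10.02 and 18.7 in the exposure means (SD, n = 3). At 24 h after the electric heater 6 of the 10 were called higher and 2 lower (34.3% and 29.5% of all genes). SIK1 was then at 7.36 ± 2.56 against 2.83 ± 0.283 FPKM (log2 difference 1.08, limma adjusted p = 1.65e-05). CITED2, a coactivator-binding regulator, was lower, at 57.1 ± 4.45 against 93.7 ± 13.1 FPKM. CITED2 was also called lower at 24 h after charcoal alone and after tobacco shisha on charcoal.

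Of 14 genes tested whose proteins bind NR4A1, 1, 1, 1 and 0 were called higher by limma at 2 h, in the same order (8.16%, 10.6%, 8.50% and 9.27% of all genes). At an unadjusted p below 0.05 these counts were the same, and the 1 gene was BCL2. The genes called lower numbered 2, 9, 7 and 5 (16.2%, 27.7%, 26.7% and 24.8%). BCL2, an inhibitor of cell death that NR4A1 can bind at mitochondria, differed by 0.29, 0.32 and 0.31 log2 units after the 3 charcoal exposures and by 0.12, not called, after the electric heater. It passed the filter only through exposed wells. At 24 h after the electric heater 3 of the 14 were called higher and 6 lower (34.3% and 29.5% of all genes).

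Genes reported elsewhere as NR4A1 targets in liver, muscle, steroid-making or tumour cells were mostly too low to test here. Of 13 glucose genes listed, 3 were tested, and of 13 steroid genes 2. BPGM, an enzyme of red cell glycolysis, was higher at 24 h after the electric heater by 1.35 log2 units (limma adjusted p = 2.39e-11) and GYS1, muscle glycogen synthase, lower by -0.36. At 24 h BPGM was also called higher after herbal shisha and after tobacco shisha on charcoal, and GYS1 lower after all 3 charcoal exposures. AKR1C1, a steroid and carbonyl reductase, had 4.53, 4.15 and 5.95 FPKM in the electric heater wells at 24 h and was listed at 0, 0.195 and 0 in the control wells. Without those electric heater wells it does not pass the filter, so its level is given without a test. Of 8 cell death and growth genes tested, 2 were called higher and 4 lower at 24 h after the electric heater (34.3% and 29.5% of all genes). CCND1, cyclin D1, was at 68.2 ± 8.45 FPKM at 2 h after charcoal alone, 27.0 ± 6.02 after the electric heater and 23.5 ± 0.901 in control.

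On chromosome 12 none of the 6 tested neighbours of NR4A1 showed a difference of its size at 2 h. ACVR1B, an activin receptor that ends 25.8 kb before the NR4A1 start, was lower at 2 h in all 4 exposures, from 6.96 ± 0.233 FPKM in control to 4.51 ± 0.0295 after the electric heater (SD, n = 3; log2 difference -0.53). KRT80, a keratin that begins 109.5 kb after its end, was higher in all 4, by 0.69 after charcoal alone, 0.56 after herbal shisha, 0.67 after tobacco shisha on charcoal and 0.23 after the electric heater. The other 4 neighbours tested, SLC4A8, SMAGP, KRT81 and KRT8, had log2 differences at 2 h from -0.41 to 0.33. KRT81 was at 12.9, 11.3 and 11.8 FPKM at 24 h after the electric heater, against 4.49, 3.89 and 6.24 in control. SLC4A8 was then at 1.41, 1.70 and 1.645 FPKM, against 2.87, 2.96 and 2.58.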

How the data were processed

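Total RNA from 30 wells of BEAS-2B cells was made into TruSeq libraries, per the labels' protocols, and sequenced as single reads of 50 bases. Per the submitters' processing notes, HISAT2 2.1.0, StringTie 1.3.4d and hg38 were used. No annotation release, filter or strand setting is stated there. The deposited values are FPKM for 29190 transcripts per library, and the depth behind them is unknown. Where a name had several transcripts, the one highest on average stood for it. Values were analysed as log2(FPKM + 1). The 8531 genes with 1 FPKM or more in at least 3 libraries were fitted with limma 3.58.1 (trend) in R 4.3.3, with 10 group means over 30 libraries, no replicate block, 20 residual degrees of freedom and a prior of 2.76. P-values were adjusted by Benjamini-Hochberg over all genes tested, and a gene was called below 0.05. "Rose", "higher" and "lower" of a list's members refer to called genes. The fit was tested on simulated data. The NR4A1 difference from control at 24 h, averaged over the 4 exposures, was also tested by exact permutation.

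NR4A1, the gene lists and the rule for named genes were chosen with earlier results of these data known. Named genes are NR4A1 to NR4A3; the 8 most and 3 least correlated with NR4A1 and the 5 nearest by distance; up to 6 members per list with the largest mean change at 2 h and up to 3 with the smallest p at 24 h; the 3 nearest tested genes on each side; and FOS, EGR1, JUNB and ATF3. FOSL2, NR1H2, RARG and NR3C1 fall outside this rule and were named after their values were seen. Alternatives were a replicate block, a pseudocount of 0.1, no filter, median-of-ratios scaling, summed transcripts, a fit on the compared groups alone, and leaving out each well. Tables were made with Python 3.11.15, pandas 2.3.3, numpy 2.4.6, scipy 1.17.1 and matplotlib 3.10.9.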

Additional observations from a re-analysis of the deposited data

Results flagged for a closer look

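NR4A1 differed between exposures at 24 h in 3 of 6 pairs, by a test of the difference itself in limma over all genes. The electric heater was above charcoal alone by 1.37, above herbal shisha by 1.46 and above tobacco shisha on charcoal by 1.26 on the scale log2(FPKM + 1). Each kept its direction and its call under the 12 alternatives tried, with values from 1.04 to 2.08, 1.13 to 2.27 and 0.93 to 1.85. All 3 rest on the same 3 electric heater wells, at 3.39, 1.95 and 6.11 FPKM.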

How the results depend on the processing

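Depth is unknown, and NR4A1 at 24 h outside the electric heater group, like NR4A2 and NR4A3 there, lies near or below the pseudocount, where log2 differences are compressed. With a pseudocount of 0.1 the NR4A1 differences from control at 2 h became 6.03 for charcoal alone, 6.11 for herbal shisha, 6.04 for tobacco shisha on charcoal and 6.52 for the electric heater. All NR4A1 comparisons at 24 h kept their direction and their side of the threshold under every alternative run.

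For the electric heater at 24 h, NR4A3 lost its call without the filter (0.51, adjusted p = 0.0747 by limma) and with median-of-ratios scaling (0.50, adjusted p = 0.0564). Leaving out each well gave 0.39 to 0.62 for NR4A3 and 0.29 to 0.52 for NR4A2. The early genes called at 24 h numbered 2 in a fit on the compared groups alone after charcoal alone. Leaving out each well gave 0 to 3 such genes after charcoal alone, 2 to 7 after herbal shisha and 3 to 8 after tobacco shisha on charcoal. After the electric heater it gave 14 to 20. The cause was not tested.

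With the replicate number as a block within each time, the electric heater difference of NR4A1 at 24 h was 1.18 (adjusted p = 1.64e-04 by limma), and no call of NR4A1, NR4A2 or NR4A3 changed. Residuals of libraries that share a number correlated by -0.107 to 0.177 at 2 h and -0.085 to 0.231 at 24 h. Libraries with other numbers gave -0.138 to 0.132 and -0.169 to 0.13. The medians were 0.026 and 0.043 for a shared number, against -0.008 and -0.024 for other numbers. The ranges overlap, and these values cannot settle whether a number marks a shared culture or day.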
